A study of Mus musculus with 6 samples.

Results

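The expressed Zfp genes are the mouse genes whose symbol is Zfp followed by a number, and most of them encode proteins built from repeated C2H2 zinc fingers. In mRNA sequencing of NIH3T3 cells, 366 protein-coding genes with such a symbol were listed (Zfp36, which encodes an mRNA decay factor with fingers of another kind, was left out). Of these, 225 were chosen by their mean deposited FPKM (fragments scaled to gene length and library size) of at least 1 over the 6 libraries, out of 55401 genes listed in all. The rule used the mean level of each gene and not the difference between treatments. Zfp995 and Zfp945 stood just under the threshold, at 0.983 and 0.976 FPKM, and Zfp940 and Zfp992 just above it, at 1.003 and 1.02 FPKM. All 225 passed the filter on low counts. NIH3T3 is an immortalised fibroblast line from mouse embryo, labelled wild type. One group of 3 libraries came from cells given the vehicle DMSO and the other group of 3 from cells given IPRN. Angelicin, a furanocoumarin made by plants, is named in the title of the series. According to the design text, NIH3T3 cells were stimulated with hydrogen peroxide and TGF-β, and the question was how IPRN acts on cancer-associated fibroblasts. No dose or time is given in the labels, nor whether the DMSO cells received both stimuli, and all cells are of 1 line.

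A C2H2 zinc finger is a short fold held together by a zinc ion between a pair of cysteines and a pair of histidines, and a tandem array of fingers reads a stretch of DNA. Many of the mouse genes also encode a KRAB box, which binds the corepressor Trim28 and, through it, the histone methyltransferase Setdb1, so that the bound DNA is silenced. KRAB zinc finger proteins are best known for silencing retroelements and for guarding imprinted genes, and their genes lie in tandem clusters that arose by duplication. Other members without a KRAB box act in transcription, mRNA processing, translation or mitosis.

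Total counts ran from 60320282 to 78629444 per library, and a floor of 3 counts equalled 0.0382 to 0.0497 CPM, the unit for counts relative to a library's sum. Summed fibroblast markers ran from 21009 to 22002 CPM in DMSO and from 22538 to 25933 CPM in IPRN, and none of the 9 was at 0 in all libraries. Among them Fn1 rose and Prrx1 fell. The 4 nuclear RNAs summed to between 553.4 and 592.9 CPM in DMSO and between 588.9 and 756.8 CPM in IPRN, and Neat1 among them rose, from 102.3 to 109.5 CPM in the DMSO libraries to 165.2 to 214.3 CPM in the IPRN libraries. Liver transcripts (21 genes without Hp, which these cells carry) summed to 4.81 CPM in DMSO 1 and 7.47 CPM in IPRN 3, while the remaining 4 lay between 43.0 and 125.1 CPM. The 6 macrophage markers summed to 122.8 CPM in IPRN 3, of which Lyz2 made up 99.3 CPM, against 3.23 to 15.3 CPM in the others. Mitochondrial transcripts were highest in IPRN 1, at 66042 CPM against 49520 to 53003 CPM. The 5 endothelial and 5 epithelial markers summed to at most 3.38 and 1.81 CPM. Fits without single libraries, without DMSO 1 and IPRN 3 together, and with a term for libraries with liver transcripts are given with the results, and the part of the other differences was not tested.

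The expressed Zfp genes were mostly of low abundance. Their median level was 2.66 FPKM, against 7.09 FPKM over the 11473 tested genes that reached the same threshold, and 168 of 225 (74.7%) lay under 5 FPKM. Only 4 reached 20 FPKM. The most abundant was Zfp207, at 27.7 FPKM, whose product binds microtubules and the checkpoint protein Bub3 at kinetochores. Zfp503, a corepressor of the NET family, followed at 24.9 FPKM, and Zfp706 at 21.2 FPKM. Together the 225 genes took between 0.525% and 0.537% of all counts in the DMSO libraries and between 0.541% and 0.566% in the IPRN libraries, so the ranges of the groups did not overlap. The highest value was that of IPRN 1.

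In the comparison of IPRN with DMSO, most expressed Zfp genes moved little, and those that changed mostly rose. Calls were made at an adjusted p of 0.05 by edgeR's quasi-likelihood test, Benjamini-Hochberg adjusted over all 17159 genes tested. By this rule 14 of 225 rose, 4 fell and 207 did not pass. The called share was 8%, against a background of 5.47% over all genes tested and 7.81% over those at 1 FPKM or more, so the number of calls was near the background. By direction, 6.22% of the Zfp genes rose against 2.46% of all genes tested and 3.58% of those at 1 FPKM or more, and 1.78% fell against 3.01% and 4.23%. Their median log2 fold change was 0.085, with a middle range from -0.063 to 0.31, beside 0.0016 over all genes tested. In all, 149 of 225 (66.2%) had a positive log2 fold change, against 50.2% of all genes tested and 50.9% of those at 1 FPKM or more. The groups did not overlap for 63 Zfp genes with IPRN higher and for 18 with IPRN lower, 36.0% together, against 29.6% of all genes tested and 36.5% of those at 1 FPKM or more. The changes were small, and 1 called gene reached 2-fold. Among the 103 Zfp genes at 3 FPKM or more, 4.85% rose against 4.20% of all genes at that level, a smaller contrast. Of these 103 genes 2.91% fell against 4.86%, and their median log2 fold change was 0.046.

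Of 13 genes that rose and are described by the naming rule, the smallest adjusted p was that of Zfp866, which encodes a KRAB protein with 12 fingers (ENSMUSG00000043090, chromosome 8 from 69761326 to 69791178, minus strand, GRCm38). It measured 12.4, 13.0 and 12.7 CPM in DMSO 1, 2 and 3 and 19.9, 22.2 and 23.1 CPM in IPRN 1, 2 and 3. All 3 IPRN libraries stood well above all 3 DMSO libraries, a rise of 1.72-fold (log2 fold change 0.78 ± 0.089 SE, edgeR adjusted p = 0.00762). Its deposited gene model overlaps that of Atp13a1, a P5-type ATPase gene on the opposite strand, by 15 bases at their starts. Atp13a1 itself had a log2 fold change of 0.30 (adjusted p = 0.0195), and without strand information reads from the overlap cannot be assigned. Zfp658, the largest rise, encodes a KRAB protein with 21 fingers whose human counterpart has been described as a zinc-responsive regulator. It measured 4.53, 3.96 and 3.37 CPM in DMSO and 7.48, 7.36 and 9.10 CPM in IPRN. The groups were clear of each other at these low counts (2.02-fold, log2 fold change 1.01 ± 0.16, adjusted p = 0.0206).

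A set of multi-finger genes with no KRAB pattern rose in the same range. Zfp697 measured 6.99, 7.53 and 6.51 CPM in DMSO and 13.4, 11.9 and 12.3 CPM in IPRN, a 1.79-fold rise (adjusted p = 0.00994). Zfp553 measured 16.6, 18.8 and 19.9 CPM in DMSO and 31.9, 31.4 and 28.7 CPM in IPRN, a 1.66-fold rise (adjusted p = 0.0121). Zfp319 measured 21.1, 22.3 and 21.7 CPM in DMSO and 31.4, 30.4 and 32.8 CPM in IPRN, a 1.45-fold rise (adjusted p = 0.0125). In each of these 3 genes the lowest IPRN library exceeded the highest DMSO library by more than the spread within either group. Exons of all 3 overlap those of a neighbouring gene, which leaves the sizes of the rises uncertain. Zfp574, with 18 fingers and no such overlap, measured 26.9, 23.9 and 25.1 CPM in DMSO and 37.2, 36.5 and 34.4 CPM in IPRN (1.43-fold, edgeR adjusted p = 0.0181). Zfp668, linked to DNA repair and overlapped by a neighbour, measured 13.7, 13.97 and 14.1 CPM in DMSO and 21.5, 19.0 and 21.6 CPM in IPRN (1.49-fold, adjusted p = 0.0181). The IPRN libraries were above the DMSO libraries without overlap in both genes.

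Zfp503 was the most abundant gene that rose. It lies on chromosome 14 from 21983959 to 21989601 on the minus strand (GRCm38), and the finger pattern used here finds no canonical C2H2 finger in its protein. It measured 103.2, 96.1 and 105.8 CPM in DMSO and 130.6, 133.1 and 130.6 CPM in IPRN. The IPRN libraries lay within 3 CPM of each other and far above the DMSO range, although the rise was only 1.29-fold (log2 fold change 0.37 ± 0.052, edgeR adjusted p = 0.0154). The remaining rises were smaller relative to their spread.

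Zfp687, which encodes a partner of chromatin reader proteins, measured 33.7, 32.8 and 33.4 CPM in DMSO and 43.3, 42.4 and 39.8 CPM in IPRN (1.26-fold, edgeR adjusted p = 0.0355). Zfp87, a KRAB gene, measured 5.66, 5.83 and 6.08 CPM in DMSO and 9.89, 8.41 and 8.23 CPM in IPRN (1.51-fold, adjusted p = 0.0362). Zfp41 measured 10.9, 10.7 and 11.3 CPM in DMSO and 16.4, 13.9 and 14.9 CPM in IPRN (1.37-fold, adjusted p = 0.0434). In all 3 genes IPRN 1 was the highest library and no IPRN library reached down to the DMSO range. Zfp61 measured 8.46, 9.01 and 8.07 CPM in DMSO and 11.6, 11.2 and 11.4 CPM in IPRN (1.34-fold, edgeR adjusted p = 0.0454). Zfp790, a KRAB gene, measured 8.14, 8.66 and 7.85 CPM in DMSO and 11.3, 10.7 and 10.9 CPM in IPRN (1.33-fold, adjusted p = 0.0477). Zfp691 also rose and was added by name after its values were seen, at 3.60, 3.06 and 2.499 CPM in DMSO and 6.75, 5.67 and 4.77 CPM in IPRN (1.88-fold, adjusted p = 0.0479). The groups were again separate in these 3 genes, with a narrow gap for Zfp691. Zfp687 and Zfp87 overlap other gene models.

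The genes that fell numbered 4. Zfp869 lies in the same cluster on chromosome 8 as Zfp866 and encodes a protein with 12 fingers, with a KRAB box by a wider pattern only. It measured 17.9, 27.6 and 23.7 CPM in DMSO and 12.1, 12.3 and 12.6 CPM in IPRN. The DMSO libraries were widely spread and the IPRN libraries were nearly equal, and the groups did not overlap (1.87-fold lower, log2 fold change -0.91 ± 0.16, edgeR adjusted p = 0.0269). Zfp110, which encodes a protein found as a partner of the neurotrophin receptor, measured 41.7, 42.9 and 41.8 CPM in DMSO and 29.3, 33.0 and 33.0 CPM in IPRN (1.33-fold lower, adjusted p = 0.0284). For Zfp110 the DMSO libraries were nearly equal and IPRN 1 was the lowest. Zfp146, which encodes little more than an array of 10 fingers, measured 76.0, 79.4 and 74.9 CPM in DMSO and 63.3, 60.0 and 63.7 CPM in IPRN (1.23-fold lower, edgeR adjusted p = 0.0291). Zfp91, a ubiquitin ligase gene of the non-canonical NF-κB pathway, measured 208.5, 201.0 and 199.4 CPM in DMSO and 170.9, 179.5 and 174.6 CPM in IPRN (1.16-fold lower, adjusted p = 0.0407), and its exons overlap a neighbour. Neither gene had overlapping groups. The smallest adjusted p-values among genes that did not pass belonged on the higher side to Zfp526 (0.0529), Zfp101 (0.0563) and Zfp579 (0.0566), and on the lower side to Zfp24 (0.0538), Zfp367 (0.0634) and Zfp638 (0.0877).

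**Figure D1:**
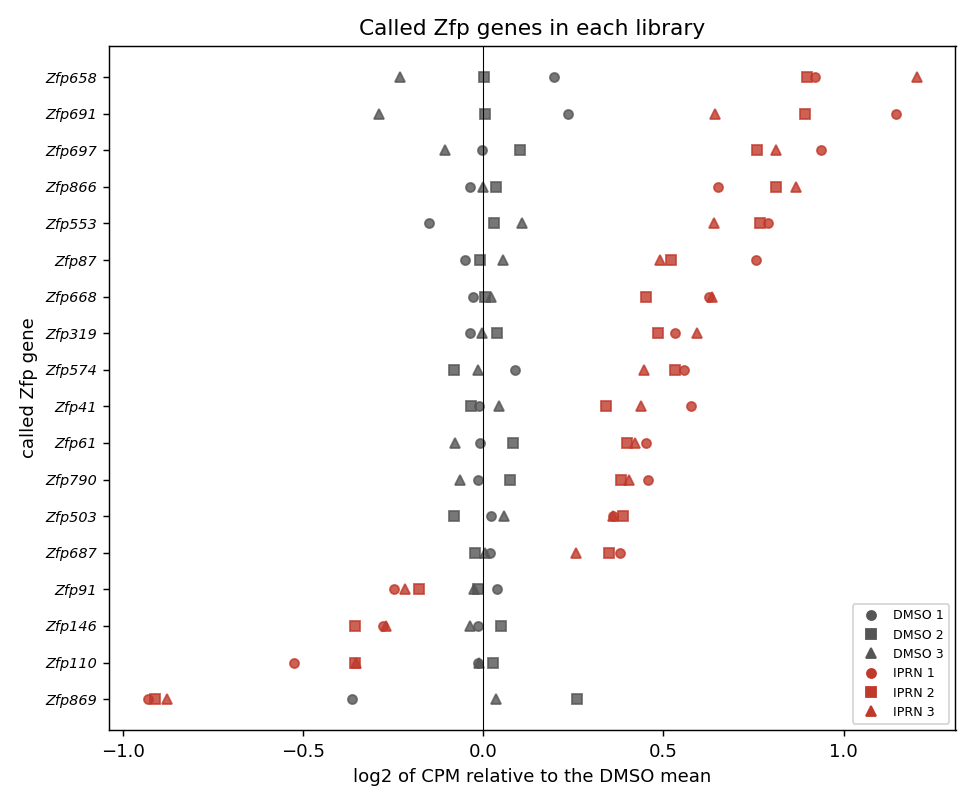
Each row is 1 of the 18 Zfp genes called changed, and each point is 1 library, placed by the log2 of its CPM relative to the mean of the 3 DMSO libraries (grey, DMSO; red, IPRN; circle, square and triangle, replicates 1, 2 and 3). In each of the 18 rows the IPRN points lie wholly to 1 side of the DMSO points, to the right in 14 rows and to the left in 4.

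The calls depended on single libraries. When each library was left out in turn, 0 of the 18 genes passed every time and 6 passed in none of the 6 fits. Leaving out DMSO 1, DMSO 2 or DMSO 3 gave 0, 2 and 2 rises and 1, 0 and 1 falls, while 0.739%, 0.808% and 1.04% of all genes were called. Leaving out IPRN 1, IPRN 2 or IPRN 3 gave 9, 4 and 3 rises and 3, 0 and 0 falls, while 5.86%, 1.32% and 1.46% of all genes were called. Calls over the whole table were thus fewer in 5 of these fits, and more numerous without IPRN 1. Zfp866 was the most stable, with 5 of 6 fits below the threshold and an adjusted p from 0.00701 to 0.0525. Without DMSO 1 and IPRN 3 together, which carried almost no liver transcripts, 0 Zfp genes and 53 of all genes were called by edgeR. With a term for libraries with liver transcripts 8 Zfp genes rose and 1 fell, of 429 genes called in all. DESeq2 called 41 Zfp genes higher and 7 lower (21.3%), against 13.5% of all genes tested and 19.2% of those at 1 FPKM or more. At an unadjusted p under 0.05 in edgeR, 49 Zfp genes were higher and 12 lower (27.1%), against 22% of all genes tested and 29.3% of those at 1 FPKM or more. The median log2 fold change of the Zfp genes was steadier than the calls, from 0.072 to 0.11 over the 6 fits.

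Promoter sequence is shown for the genes that rose and fell with the smallest adjusted p, as a view of the starts of genes that moved in opposite directions. The windows are RefSeq promoters on GRCm38.p6 (250 bases before to 50 after the start site), which matched 186 of the 225 genes by symbol. A gene was passed over where the RefSeq start lay more than 300 bases from the deposited gene start. Zfp553 is at chr7:127232811-127233110 on the plus strand, Zfp319 at chr8:95331762-95332061 on the minus strand and Zfp697 at chr3:98382231-98382530 on the plus strand, and these genes rose. Zfp869 is at chr8:69716853-69717152 on the minus strand and Zfp110 at chr7:12834511-12834810 on the plus strand, and these genes fell. Capitals mark a match on either strand to the GC box GGGCGG, the ETS core CCGGAAG, the cyclic AMP element TGACGTCA, the AP-1 site TGACTCA, the E-box CACGTG, the NRF1 site or the SRF core.
Zfp553: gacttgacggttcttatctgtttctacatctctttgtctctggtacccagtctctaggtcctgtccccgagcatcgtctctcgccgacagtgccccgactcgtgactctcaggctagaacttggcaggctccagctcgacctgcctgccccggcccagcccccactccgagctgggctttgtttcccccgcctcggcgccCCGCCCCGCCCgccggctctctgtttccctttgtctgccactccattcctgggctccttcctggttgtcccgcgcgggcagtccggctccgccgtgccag
Zfp319: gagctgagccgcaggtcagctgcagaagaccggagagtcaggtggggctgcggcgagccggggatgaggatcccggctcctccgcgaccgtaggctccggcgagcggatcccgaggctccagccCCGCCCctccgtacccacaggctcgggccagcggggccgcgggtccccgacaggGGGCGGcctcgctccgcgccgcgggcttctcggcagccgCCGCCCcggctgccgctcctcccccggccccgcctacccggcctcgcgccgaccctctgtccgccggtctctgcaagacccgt
Zfp697: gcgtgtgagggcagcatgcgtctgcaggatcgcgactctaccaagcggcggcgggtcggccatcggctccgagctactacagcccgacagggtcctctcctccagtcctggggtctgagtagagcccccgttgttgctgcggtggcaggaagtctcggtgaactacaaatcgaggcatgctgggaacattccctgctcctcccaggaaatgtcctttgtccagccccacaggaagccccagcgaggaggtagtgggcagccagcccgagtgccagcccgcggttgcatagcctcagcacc
Zfp869: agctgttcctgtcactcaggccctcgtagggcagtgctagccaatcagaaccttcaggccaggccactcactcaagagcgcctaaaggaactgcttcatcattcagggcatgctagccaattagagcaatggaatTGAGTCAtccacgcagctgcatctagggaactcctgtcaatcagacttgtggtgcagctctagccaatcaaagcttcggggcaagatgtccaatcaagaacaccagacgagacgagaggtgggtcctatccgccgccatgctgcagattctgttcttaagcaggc
Zfp110: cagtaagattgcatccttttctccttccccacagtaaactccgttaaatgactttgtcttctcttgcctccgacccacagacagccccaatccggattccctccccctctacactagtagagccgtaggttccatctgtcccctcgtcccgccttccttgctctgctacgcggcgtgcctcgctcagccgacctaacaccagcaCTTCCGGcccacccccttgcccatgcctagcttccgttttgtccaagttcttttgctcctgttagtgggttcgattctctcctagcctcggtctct

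Zfp553 held 2 overlapping GC boxes and Zfp319 held 3, Zfp697 held none of the 7 motifs, Zfp869 held 1 AP-1 site and Zfp110 held 1 ETS core. CG dinucleotides numbered 23 in the Zfp553 window, 40 in Zfp319, 19 in Zfp697, 8 in Zfp869 and 15 in Zfp110. Over all 186 matched Zfp promoters the median was 16, against 7 over 32851 promoter windows of the same length. Those windows were not limited to genes expressed here or to 1 per gene. Whether this contrast and those below are particular to Zfp genes among expressed genes was therefore not tested. A GC box was found in 50% of Zfp promoters against 35.7% of all windows, and an ETS core in 19.4% against 8.86%. The NRF1 site was in 4.30% against 0.971%, the E-box in 9.14% against 7.15%, the cyclic AMP element in 2.15% against 1.79%, the AP-1 site in 3.23% against 5.20%, and the SRF core in 0 Zfp promoters against 0.0639%. The RefSeq start lay more than 300 bases from the deposited start for 17 of the 186, which these shares include. Among windows within 300 bases, 4 of 9 from genes that rose held a GC box and 1 an ETS core, and of 4 from genes that fell, 0 and 2 did. These are matches of letters in a window and were not tested against the changes.

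The libraries differed in the overall level of Zfp transcripts. The median deviation of the 225 genes from their 6-library mean, on the scale of log2(CPM + 0.5), was -0.046 in DMSO 1, -0.014 in DMSO 2 and -0.064 in DMSO 3. It was 0.11 in IPRN 1, 0.017 in IPRN 2 and 0.028 in IPRN 3. Every IPRN library was thus above every DMSO library, but IPRN 1 stood far above IPRN 2 and IPRN 3. IPRN 1 held the highest value of the 6 libraries for 82 of the 225 genes (36.4%), against 23.6% of all genes tested. Without IPRN 1 the median log2 fold change was 0.072 and 133 of 225 (59.1%) were positive, beside a median of -0.0073 and 48.9% over all genes tested. The median SD within groups was 0.14 on the log2 scale for Zfp genes and 0.11 for all genes at 1 FPKM or more.

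**Figure D2:**
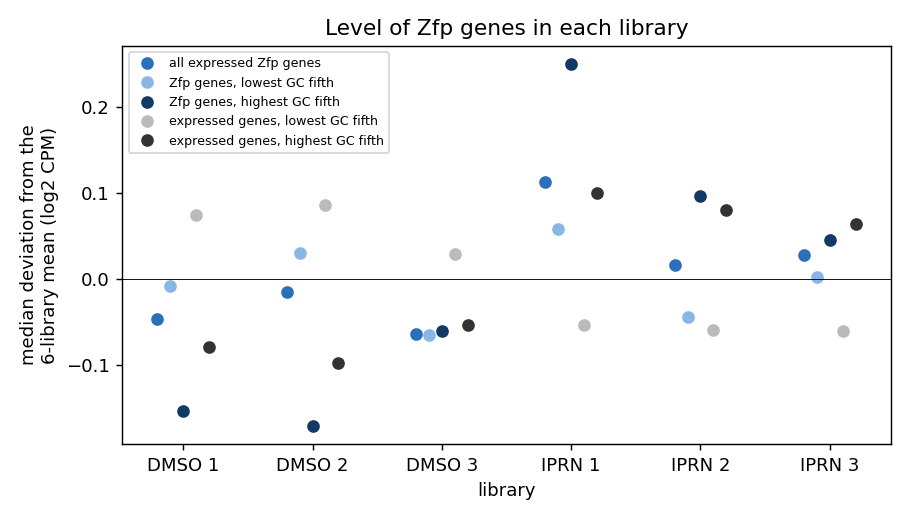
For each library, points give the median deviation from the 6-library mean in log2 CPM of all 225 Zfp genes, of the Zfp genes in the lowest and the highest of 5 equal groups by transcript GC content, and of all expressed genes in the same groups. The 3 IPRN libraries lie above 0 for all Zfp genes and the 3 DMSO libraries below, and the points of the highest GC group lie farthest apart, from -0.17 in DMSO 2 to 0.25 in IPRN 1.

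Fold changes over the whole table moved with the GC content of the transcript, which bears on the Zfp genes because many are rich in A and T. When the expressed genes were divided into 5 equal groups by the GC content of their longest transcript, 6 rose and 184 fell in the lowest group (under 43.9% GC), and 241 rose and 35 fell in the highest (over 55.4% GC). The median log2 fold change went from -0.12 to 0.17. Of the Zfp genes, 102 (45.3%) lay in the lowest group and 37 (16.4%) in the highest. Their medians were 0.044, 0.13, 0.0092, 0.19 and 0.32 from the lowest to the highest group, beside -0.12, -0.074, 0.0011, 0.086 and 0.17 for all expressed genes. The Zfp median was the higher one in all 5 groups, by 0.16 in the lowest and by 0.0081 in the middle one. In the lowest group 58 of 102 Zfp genes (56.9%) had a positive log2 fold change, against 25.6% of all expressed genes in it. Across genes, which share the same 6 libraries, Pearson's r between GC content and log2 fold change was 0.26 over 225 Zfp genes and 0.28 over 11466 expressed genes. Spearman's rank correlation was 0.30 and 0.42.

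When each library's smooth trend against GC content was removed as an offset in edgeR, an alternative chosen after the data were seen, 9 Zfp genes rose and 0 fell, in place of 14 and 4. The called total over all genes went from 938 to 422, with 128 rises and 294 falls, so 4% of Zfp genes rose against 0.746% of all genes tested and 1.09% of those at 1 FPKM or more. In either direction the called share was 2.46% of all genes and 3.5% of those at 1 FPKM or more. The Zfp median became 0.15 with 165 of 225 (73.3%) positive, beside 0.0019 and 50.2% over all genes. Zfp866, Zfp697, Zfp553, Zfp319, Zfp668, Zfp658 and Zfp87 were called in both fits. Zfp101 and Zfp748 were called after the offset only, at log2 fold changes of 0.48 and 0.68 (edgeR adjusted p = 0.0363 and 0.0483). Zfp503 had a log2 fold change of 0.21 after the offset in place of 0.37 (adjusted p = 0.0792), and Zfp869 -0.81 in place of -0.91 (0.0518). Zfp687 went from 0.33 to 0.21 and, among named genes that were not called, Zfp526 from 0.43 to 0.28, Zfp579 from 0.36 to 0.19, Zfp703 from 0.35 to 0.17, Zfp24 from -0.30 to -0.19, Zfp326 from -0.19 to -0.075 and Zfp281 from -0.15 to -0.050. A treatment effect that itself follows GC content and a library bias that does so cannot be told apart here.

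**Figure D3:**
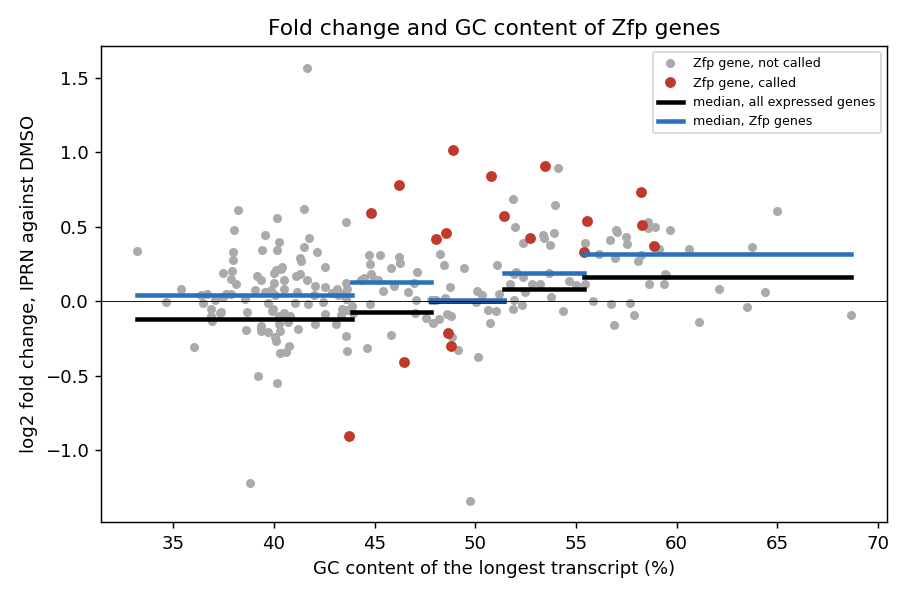
Each point is a Zfp gene, placed by the GC content of its longest GENCODE transcript in percent and its edgeR log2 fold change of IPRN against DMSO (red, called; grey, not called), and bars give the medians of Zfp genes (blue) and of all expressed genes (black) in 5 GC groups of equal size. Both sets of bars are higher at the right than at the left, and the blue bars lie above the black ones, by 0.16 in the lowest group and by 0.0081 in the middle one.

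Many Zfp genes lie in tandem, and values were set out by cluster, with no test between clusters. A cluster was taken as a run of at least 4 protein-coding Zfp genes with at most 500 kb between neighbours, and runs are numbered along each chromosome. There were 22 such runs, 9 of them on chromosome 7, and 110 expressed Zfp genes lay in 21 of them. Of these 110, 8 rose and 3 fell, with a median log2 fold change of 0.14 and 84 (76.4%) positive, whereas of the 115 scattered genes 6 rose and 1 fell, with a median of 0.031 and 65 (56.5%) positive. The called shares were 10% and 6.09%, near the 5.47% of all genes tested and 7.81% of those at 1 FPKM or more. Without IPRN 1 the medians were 0.12 and 0.023, and after the GC offset they were 0.19 and 0.053. The clustered genes were also lower in level than the scattered ones, at a median of 2.27 against 3.32 FPKM. Their median GC content was lower too, at 43.5% against 47.6%. The part of level in the contrast was not tested. Of the 15 runs with at least 4 expressed genes, 13 had a positive median, 11 without IPRN 1, and 15 after the GC offset (from 0.080 to 0.68).

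Run 9 of chromosome 7, from 127233061 to 127885992 as deposited, held 10 Zfp genes, all of them expressed. Zfp553 and Zfp668 rose, 9 of 10 were positive, and the median was 0.42, or 0.27 without IPRN 1 and 0.32 after the GC offset. For this and the runs below, 3.58% of all genes at 1 FPKM or more rose and 50.9% were positive. Of all expressed Zfp genes 6.22% rose and 66.2% were positive. For 5 of the 10 every IPRN library exceeded every DMSO library. The same held for 14.9% of all genes tested and 18.8% of those at 1 FPKM or more. The 15 other expressed protein-coding genes in the same stretch had a median of 0.15, with 1 rise and 0 falls, at a similar GC content (54.6% against 53.3%). Over the 11 runs with at least 4 expressed Zfp genes and neighbours of this kind, the Zfp median was the higher one in 5 and the lower one in 6. In run 5 of chromosome 7, for example, it was 0.10 against 0.15 for 11 neighbours of higher GC content (52.7% against 58.6%). In run 8 it was 0.062 against 0.16 for 4 neighbours, also of higher GC content (41.2% against 54.7%). Run 1 of chromosome 4 and run 1 of chromosome 8 held only 1 such neighbour each. The comparison with neighbours was not adjusted for GC content. On chromosome 13 from 67038596 to 67827002, 4 of 19 Zfp genes were expressed and all 4 were positive, with a median of 0.58 at a median GC content of 40.8%. They were Zfp87, which rose, and, named after their values were seen, Zfp748, Zfp58 and Zfp65, at log2 fold changes of 0.56, 0.62 and 0.078. The 5 genes of run 1 on chromosome 7 had a median of 0.48, which was 0.26 without IPRN 1, and the 7 of run 1 on chromosome 6 had a median of 0.35 with all 7 positive and 0 called, which was 0.19 after the GC offset. All 8 expressed genes of run 2 on chromosome 17 were positive as well (median 0.21, 0 called).

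Other runs held genes of opposite direction. In run 1 of chromosome 8, from 69209038 to 69791178, Zfp866 rose and Zfp869 fell, while Zfp930, Zfp868 and Zfp963 were not called and the median of the 5 was 0.085. In run 7 of chromosome 7, Zfp790 rose and Zfp146 fell among 11 expressed genes. The largest run by expressed genes, run 1 of chromosome 17 with 14, had a median of 0.029 with 0 called and was at -0.060 without IPRN 1. The runs on chromosomes 4 and 9 with at least 4 expressed genes (5 in run 1 of chromosome 4 and 4 in run 1 of chromosome 9) had medians of -0.014 and -0.036. Near-identical copies are frequent in such runs, and how reads with several matches were counted is not given in the sources used here. For 34 of the 225 genes more than 10% of the 100-base words of the longest transcript also occur in a transcript of another gene, Zfp866 among them at 10.3%, and 1 of these 34 was called. The other 191 had 13 rises, 4 falls and a median of 0.094. The called shares were 2.94% of the 34 and 8.9% of the 191, against 7.81% of genes at 1 FPKM or more.

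**Figure D4:**
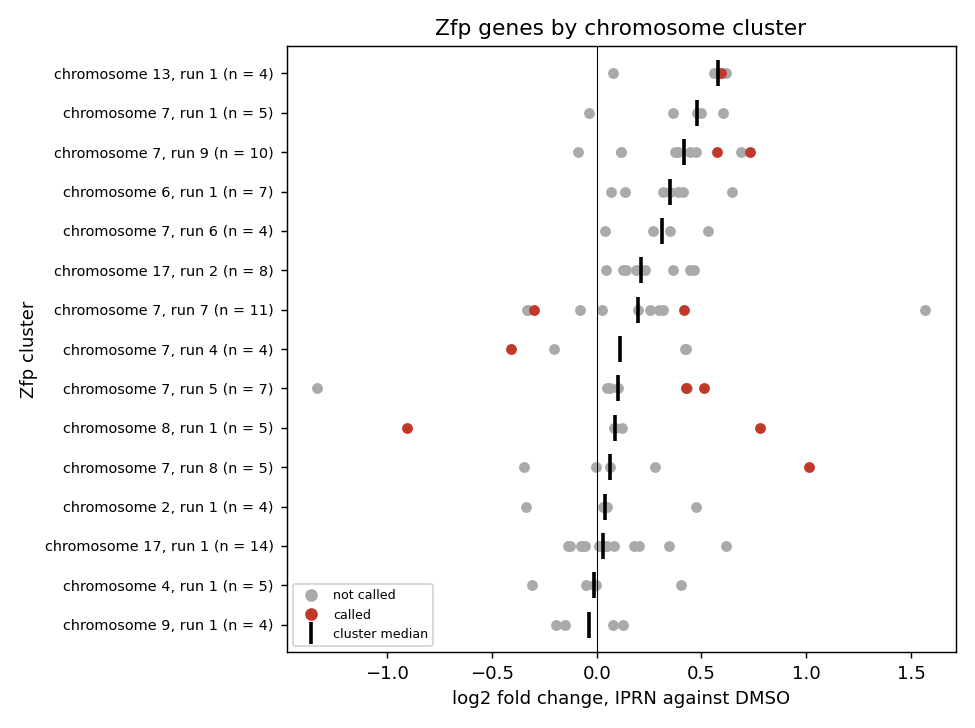
Rows are the 15 runs of Zfp genes that held at least 4 expressed members, points are genes placed by the edgeR log2 fold change of IPRN against DMSO (red, called; grey, not called), and black bars are medians. Medians lie to the right of 0 in 13 rows, from -0.036 in run 1 of chromosome 9 to 0.58 in run 1 of chromosome 13.

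Features of the encoded proteins were set beside the changes. A KRAB A-box pattern was found in 52 of the 224 genes with a protein-coding GENCODE transcript, and in 92 with a wider pattern chosen after the data were seen. Of the 52 genes 4 rose and 0 fell (median 0.083), and of the 172 without the pattern 10 rose and 4 fell (median 0.098). With the wider pattern the medians stood in the other order, as 4 rose and 1 fell (median 0.11) and of the 132 genes without it 10 rose and 3 fell (median 0.074). The called shares with and without a pattern were 7.69% and 8.14% by the first and 5.43% and 9.85% by the wider one. They were 5.47% over all genes tested and 7.81% over those at 1 FPKM or more. The median number of C2H2 fingers was 10 and the highest was 36, in Zfp142. Genes with 0 or 1 finger had a median log2 fold change of -0.057 (14 genes, 1 called), those with 2 to 5 fingers 0.031 (38 genes), with 6 to 10 fingers 0.083 (69 genes), with 11 to 15 fingers 0.12 (70 genes) and with 16 or more 0.12 (33 genes). These medians were not tested against each other, and the GC content of the groups differed, from a median of 42.1% with 11 to 15 fingers to 53.1% with 0 or 1 finger. The level of the groups differed as well, from a median of 7.36 FPKM with 0 or 1 finger to 1.73 FPKM with 16 or more. Of the Zfp genes, 18 (8%) had the start of a protein-coding gene on the opposite strand within 1000 bases upstream, against 12.4% of 9913 expressed protein-coding genes.

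Members with known tasks in silencing retroelements and imprinted genes were expressed without a called change. Of 6 on this list 5 were expressed, and Zfp708 was under the threshold. Of the 5, 0 were called, where 7.81% of genes at 1 FPKM or more were called. Zfp445, which guards imprinted regions, measured 55.7, 60.3 and 55.3 CPM in DMSO and 49.8, 55.3 and 55.3 CPM in IPRN, with overlapping ranges. Zfp57, the other imprint guardian, was uneven within both groups, at 26.5, 14.8 and 11.8 CPM in DMSO and 21.4, 8.27 and 15.7 CPM in IPRN. Zfp568, a repressor of a placental Igf2 transcript, measured 19.98, 8.46 and 7.65 CPM in DMSO and 10.6, 7.86 and 22.8 CPM in IPRN. In both genes the spread between replicates was larger than the difference between groups. Zfp809, which silences murine leukaemia viruses, had a log2 fold change of 0.14 ± 0.17 and Zfp932, which represses endogenous retroviruses, -0.08 ± 0.25.

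Members that act on RNA, ribosomes or the spindle also had 0 calls among 7, where 7.81% of genes at 1 FPKM or more were called. Zfp598, the ubiquitin ligase that marks collided ribosomes, measured 65.9, 69.5 and 71.4 CPM in DMSO and 77.9, 78.5 and 77.9 CPM in IPRN, so the groups did not overlap, but the difference of 1.13-fold did not pass (edgeR adjusted p = 0.0961). After the GC offset its log2 fold change was 0.012 in place of 0.18. Zfp638, an RNA-binding protein gene, measured 74.6, 73.2 and 50.3 CPM in DMSO and 43.3, 43.8 and 48.4 CPM in IPRN. DMSO 3 lay near the IPRN libraries, and without DMSO 3 the gene was called lower (adjusted p = 0.0217). Zfp207 measured 201.4, 204.4 and 214.6 CPM in DMSO and 227.3, 188.8 and 195.6 CPM in IPRN, with a log2 fold change of -0.02 ± 0.076. The other 4 were Zfp106 (0.0088 ± 0.051), which binds RNA in muscle and nerve, Zfp622 (-0.06 ± 0.071), a factor of 60S ribosome maturation, Zfp830 (-0.09 ± 0.092), a splicing-associated factor, and Zfp326 (-0.19 ± 0.089), which links transcription to splicing, all as log2 fold changes.

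Of 13 listed transcription factors of mesenchymal cells and growth control, 11 were expressed, and Zfp423 and Zfp467, both studied in adipocyte commitment, were under the threshold. Zfp503 rose, Zfp91 fell and 9 did not pass (18.2% called, against 7.81% of genes at 1 FPKM or more). Zfp703, the relative of Zfp503, measured 19.4, 16.7 and 20.98 CPM in DMSO and 32.0, 23.8 and 17.0 CPM in IPRN, with IPRN 3 inside the DMSO range. Zfp521, a regulator of osteoblast and adipocyte fate, measured 10.4, 20.1 and 12.6 CPM in DMSO and 16.2, 9.06 and 7.95 CPM in IPRN, also with overlap. Zfp281, a factor of pluripotent cells, measured 87.7, 90.7 and 88.2 CPM in DMSO and 85.2, 76.4 and 78.1 CPM in IPRN, without overlap but short of the threshold (edgeR adjusted p = 0.178). Zfp148, which binds GC-rich promoters, was uneven within both groups, with DMSO 3 at 32.4 and IPRN 2 at 31.6 CPM and the remaining 4 libraries between 58.9 and 64.4 CPM. The other 5 lay within 0.19 of 0 on the log2 scale: Zfp217 (0.12), a growth-promoting factor, Zfp219 (0.081), Zfp410 (0.18), an activator of Chd4, Zfp131 (-0.01), and Zfp462 (0.0069).

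The 3 largest differences that did not pass, named after their values were seen, each came with 1 library far from the rest. Zfp260 measured 39.2 CPM in IPRN 3 and between 3.72 and 8.73 CPM in the others (2.96-fold higher in IPRN, edgeR adjusted p = 0.272). Zfp180 measured 34.0 CPM in DMSO 3 and between 5.63 and 8.55 CPM elsewhere, and Zfp62 33.6 CPM in DMSO 1 and between 5.10 and 8.09 CPM elsewhere. In all, 15 of 225 Zfp genes (6.67%) varied by more than 2-fold between replicates of 1 group, against 8.34% of all genes at 1 FPKM or more.

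The corepressor machinery that KRAB proteins recruit was measured beside them, from a list of 25 genes. The median log2 fold change of the list was 0.065, and 1 gene rose, 1 fell and 23 did not pass. The called share was 8%, against 5.47% of all genes tested and 7.81% of those at 1 FPKM or more. The groups did not overlap for 18 of the 25 (72%), 11 with IPRN higher and 7 with IPRN lower, against 29.6% and 36.5%. The listed genes were more abundant than those of both backgrounds, at a median of 26.9 FPKM against 3.17 and 7.09 FPKM. No background of like level was set beside them. Trim28, which binds the KRAB box, rose, with 357.4 ± 4.33 CPM in DMSO and 418.0 ± 13.3 CPM in IPRN (SD, n = 3, log2 fold change 0.23, edgeR adjusted p = 0.0366). Chd3, a nucleosome remodeller of the NuRD complex, fell from 250.1 ± 13.3 to 203.6 ± 7.86 CPM (log2 fold change -0.30, adjusted p = 0.0344). The GC content of Trim28 (59.6%) and Chd3 (56.1%) put both in the highest GC group, where the median of all expressed genes was 0.17. The part of GC content in these changes was not tested. Among 47 expressed genes of the related Zbtb, Zkscan, Zscan and Zfhx families 1 rose and 1 fell (4.26% called), with a median of 0.12 and 31 (66%) positive. The 102 tested Zfp genes below 1 FPKM had 0 called by edgeR and a median of 0.18, with 66 (64.7%) positive. Calls at that level were few for all genes, since 896 of the 938 genes called lay at 1 FPKM or more.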

How the data were processed

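Polyadenylated RNA from 6 libraries (DMSO and IPRN, replicates 1 to 3 each) was fragmented, reverse transcribed with random primers and sequenced, per the labels' protocols, which name no step that marks the strand. The authors deposited per gene a raw count and an FPKM value, per the file headers. The submitters' processing notes name cutadapt 1.9 and give no settings. The aligner, the counting tool and the genome build are unstated in what was used here. Positions of 187 of the 225 Zfp genes were identical in GENCODE release M21, so GRCm38 is named only for those. FPKM served to choose members and give levels. The test on counts was that of edgeR 4.0.16 under R 4.3.3 (TMM normalisation, default filter on groups with a minimum count of 10, quasi-likelihood test, group as the only term, Benjamini-Hochberg over 17159 genes, two-sided). Alternatives were DESeq2 1.42.0, other scalings and filters, left-out libraries, a term for libraries with liver transcripts, a replicate block and the GC offset. SE is the log2 fold change divided by the root of F. CPM are TMM-normalised except in marker sums and in shares of counts. The edgeR script was tested on simulated data. Whether replicates are separate cultures is not in the labels, so p-values measure the spread between libraries, which may be technical. The floor covers counting error only.

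Members and lists were chosen with earlier results of these data known. Named were the called members (up to 12 a direction by adjusted p, and any in a cluster), the next 3 in each direction, the 3 most abundant and the members of 3 role lists. Fingers and KRAB patterns were searched in translated GENCODE transcripts, since no protein table was used here. The GC offset was a lowess curve of each library (span 0.3).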

Additional observations from a re-analysis of the deposited data

How the results depend on the processing

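Counts of calls depended on the settings and the median did not change sign. The counts below are for all genes, Zfp genes that rose and Zfp genes that fell, from main values of 938, 14 and 4. With size factors of DESeq2 in edgeR they were 941, 14 and 4, and with scaling to the total 939, 16 and 3. Without the filter they were 621, 8 and 3, with the liver term 429, 8 and 1, with the GC offset 422, 9 and 0, and with DESeq2 2312, 41 and 7. With a filter at a mean of at least 50 counts they were 1161, 17 and 6. Without genes whose exons overlap another gene they were 666, 10 and 3, with 157 Zfp genes left. Without DMSO 1 and IPRN 3 they were 53, 0 and 0. Between libraries of equal replicate number, deviations from the group means had correlations of -0.055, 0.0073 and -0.065 for numbers 1, 2 and 3. These values cannot show whether equal numbers shared a culture or day, which the labels do not say. With replicate number as a block the counts were 103, 0 and 0, and 81, 0 and 0 with the block and the GC offset. In the fits without 1 library they ran from 133 to 1047, 0 to 9 and 0 to 3. At a level threshold of 3 FPKM 5 of 103 Zfp genes rose (4.85%, against 4.20% of all genes at that level). In this set 3 fell (2.91% against 4.86%), and 9.06% of all genes at that level were called in either direction. The median of the 103 was 0.046, against 0.085 for all expressed Zfp genes. The Zfp median was 0.15 with the GC offset and 0.14 with block and offset, and under the other settings it moved by less than the spread of libraries.

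Among the named genes, signs changed only for those that were not called. With the GC offset, and with block and offset, values were 0.0090 and 0.0081 for Zfp445, 0.051 and 0.053 for Zfp706, 0.044 and 0.044 for Zfp622, -0.092 and -0.090 for Zfp219, 0.091 and 0.088 for Zfp207, 0.053 and 0.052 for Zfp148, and 0.11 and 0.12 for Zfp131, and 0.031 for Zfp932 with the offset. Zfp131 was 0.0097 with the replicate block and 0.0047 without overlapping models, and Zfp462 -0.0023 with the block. Without DMSO 1 and IPRN 3, Zfp57 was at 0.16, Zfp131 at 0.15 and Zfp462 at -0.11. In the fits without 1 library, values ran from -0.052 to 0.29 for Zfp809, -0.56 to 0.19 for Zfp57, -0.049 to 0.23 for Zfp219, -0.38 to 0.77 for Zfp568, -0.39 to 0.071 for Zfp932, -0.11 to 0.036 for Zfp207, -0.32 to 0.18 for Zfp148, -0.024 to 0.030 for Zfp106, -0.18 to 0.091 for Zfp131, -0.067 to 0.14 for Zfp462. The cause was not tested.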
